A study of Oryza sativa with 12 samples.

Results

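The nonsymbiotic hemoglobins NSHB1 and NSHB2 of rice (Oryza sativa, cultivar Nipponbare) were followed in embryonic axes of seeds that had been stored at 25 °C or at 40 °C. They were 2 of 17905 genes that the array annotation paired with a probe set, and were found by their symbols or synonyms through 4 probe sets. Each gene was read through its probe set with the highest mean over all arrays. For NSHB1 (synonyms GLB1A and OsPgb1.1) this was the set with the suffix _s_at of its 3 sets, and NSHB2 (synonyms GLB1B and OsPgb1.2) had a single set. Total RNA was hybridised to 12 Affymetrix Rice Genome Arrays, and the values are log2 signals per probe set. There were 4 groups of 3 replicates, titled E25OH, E400H, E25_4H and E40_4H. All seeds, controls included, were wild-type Nipponbare as far as the labels say. They were held for 3 days at 25 °C and then for 14 days (15 in another label) at 25 °C or 40 °C in air of 85% relative humidity. A last period of 3 days at 32% relative humidity followed. The suffixes 0H (written with the letter O in the 25 °C titles) and 4H are not defined in the labels. The labels do not say whether replicates came from separate seed lots, so a p-value here speaks only of the scatter among the arrays of a group, and that scatter may be technical.

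Plant hemoglobins of this type occur outside root nodules. They bind oxygen very tightly and, in their oxygenated form, turn nitric oxide into nitrate, a reaction known above all from cells short of oxygen. Their transcripts are known to respond to low oxygen, nitrate, nitric oxide and, for rice Hb2 (a synonym of NSHB2), cytokinin. In germinating cereal seeds they are known from the embryo. Of the 4 hemoglobin genes in the RefSeq table of rice, NSHB3 and NSHB4 had no probe set in the annotation, so they were not analysed here. In that table NSHB3 and NSHB4 are the next genes after NSHB1 on the same chromosome, which also carries NSHB2. Probe sets marked _s_at or _x_at can match related transcripts, so a share of the NSHB1 signal from these neighbours was not tested.

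The pair had been selected on the measured difference between 4H and 0H at 25 °C, so the values of that comparison are given as a description, with no test. At 25 °C NSHB1 read 1.96, 2.12 and 1.92 at 0H and 9.96, 10.08 and 10.23 at 4H. NSHB2 read 3.40, 2.19 and 1.52 at 0H and 10.65, 10.69 and 10.66 at 4H. Each 4H array lay far above each 0H array for both genes, and all 0H arrays lay below log2 4, the limit used to filter low signals. The group means of NSHB1 were 2.0 ± 0.11 and 10.09 ± 0.14 (SD, n = 3), and those of NSHB2 2.37 ± 0.96 and 10.67 ± 0.02 (SD, n = 3). Against log2 4, the 4H signal was at least 6.09 higher for NSHB1 and at least 6.67 higher for NSHB2. As deposited, the differences were 8.09 and 8.30. They had ranks 3 and 2 from the top among the 17650 probe sets that passed the filter. In this comparison 39.9% of the probe sets passed the test as higher at 4H and 42.0% as lower, and 39.8% had all 3 arrays higher without overlap. Nothing is read from these shares about genes picked for the difference.

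**Figure D1:**
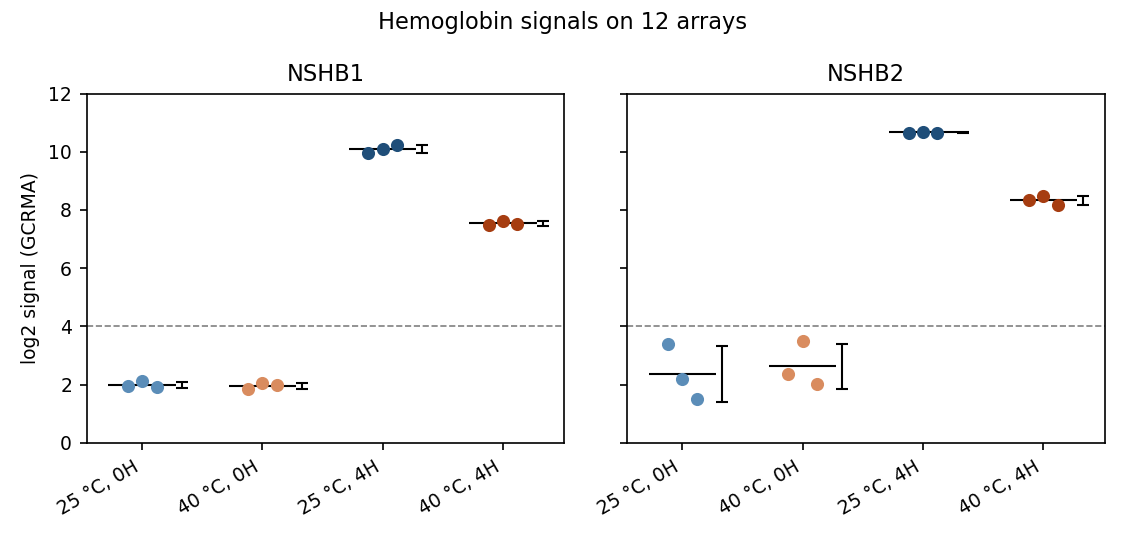
Log2 signals of NSHB1 and NSHB2 (vertical axis) in the 4 groups (horizontal axis). Points are single arrays, horizontal bars the group means, error bars the SD (n = 3), and the dashed line log2 4. All 0H arrays lie below the line at both temperatures, and the 40 °C 4H arrays lie between them and the 25 °C 4H arrays.

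In the seeds stored at 40 °C both hemoglobin transcripts rose from 0H to 4H. The 40 °C arrays were not in the difference that the genes were selected on, but they entered the mean that chose the probe set, and earlier results of them were known. NSHB1 read 1.84, 2.05 and 2.0 at 0H and 7.47, 7.62 and 7.52 at 4H. NSHB2 read 2.37, 3.51 and 2.02 at 0H and 8.33, 8.49 and 8.17 at 4H. The groups did not overlap, and the 0H arrays again all lay below log2 4. NSHB1 thus rose by at least 3.54 (at least 11.6-fold in signal; limma adjusted p = 2.25e-14 on the deposited signals). NSHB2 rose by at least 4.33 (at least 20.1-fold; limma adjusted p = 2.27e-09). Both genes passed the filter only through their 4H arrays, so these tests of 4H against 0H are not independent of the filter. As deposited, the differences were 5.58 (SE 0.11, 95% interval 5.34 to 5.81) and 5.70 (SE 0.39, 95% interval 4.86 to 6.54). They ranked 195 and 171 from the top of 17650. Both members passed the test as higher, where 41.0% of all probe sets did and 46.3% passed as lower. Arrays lay apart in this direction for 41.8% of all probe sets. With 2 members, nothing is read from their share against this background. The median difference over all probe sets that passed the filter was −0.13.

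At 0H the temperatures did not separate the genes through their chosen probe sets. The 25 °C 0H arrays are part of the difference that the genes were selected on, so this comparison is not independent of that choice. The 40 °C and 25 °C arrays overlapped, with means of 1.96 ± 0.11 and 2.0 ± 0.11 for NSHB1 and 2.63 ± 0.78 and 2.37 ± 0.96 for NSHB2 (SD, n = 3). All of these means lay below log2 4, so no size is given. Neither gene passed the test (limma adjusted p = 0.836 and 0.689), while 17.7% of all probe sets did (5.99% higher and 11.7% lower at 40 °C). The 95% intervals on the deposited signals ran from −0.28 to 0.20 for NSHB1 and from −0.57 to 1.1 for NSHB2. Signals this low limit what could be seen of any stored hemoglobin transcript. The direction of the NSHB2 difference rested on single arrays: without replicate 2 at 40 °C it was −0.18, and without replicate 3 at 25 °C −0.16.

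At 4H both hemoglobin transcripts were lower after storage at 40 °C than at 25 °C. These comparisons share the 25 °C arrays with the difference that the genes were picked for, so they are not independent of that choice. NSHB1 fell by 2.55 on the log2 scale, from 10.09 ± 0.14 to 7.54 ± 0.08 (SD, n = 3; SE 0.11, 95% interval −2.79 to −2.32, limma adjusted p = 3.08e-10). NSHB2 fell by 2.33, from 10.67 ± 0.02 to 8.33 ± 0.16 (SD, n = 3; SE 0.39, 95% interval −3.17 to −1.50, limma adjusted p = 7.95e-05). In signal these are 5.87-fold and 5.04-fold differences. The wider error of NSHB2 draws on the spread of its low 0H signals, since all groups share an estimate of the spread. All 3 arrays at 40 °C lay below all 3 at 25 °C for both genes. Both members passed the test as lower, where 43.5% of all probe sets did, 30.5% passed as higher and 44.3% had all 3 arrays lower. Their differences ranked 187 and 243 from the lowest of 17650, and the median over all of them was −0.16. The intervals of the 2 genes overlap, and whether their falls differ from each other was not tested. In bulk axes, fewer cells with the transcript and less transcript per cell cannot be told apart.

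The order of the levels was the same for both genes among the 4H groups. The highest level was at 25 °C 4H, followed by 40 °C 4H, and the 0H groups of the 2 temperatures did not differ beyond their spread. The change from 0H to 4H was smaller at 40 °C than at 25 °C by 2.51 (SE 0.16) for NSHB1 and by 2.60 (SE 0.55) for NSHB2 as deposited. With signals below log2 4 set to 4, the differences of the changes were −2.55 and −2.33. They hold the comparison the genes were picked for and were not tested.

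Of 4 measures of the preparation, Gapdh and the poly-A spike-ins lay apart between the temperatures at 4H, and their part in the hemoglobin difference was not tested. The 3′ minus 5′ signal of Gapdh, a sign of RNA or labelling quality, was 2.26 to 2.44 at 25 °C and 2.56 to 2.95 at 40 °C. The poly-A spike-ins averaged 2.53 to 3.95 and 4.19 to 6.17. Actin overlapped, at 2.82 to 3.14 and 2.85 to 3.12, and so did 18S rRNA, which read 6.82 in replicate 3 at 25 °C 4H against 11.04 and 11.06 in the other replicates. The 0H arrays differed too, with 2.06 to 2.40 at 25 °C and 3.40 to 3.98 at 40 °C for Gapdh, and 2.37 to 2.50 and 3.2 to 3.48 for Actin. The 18S rRNA signal was 7.87 in replicate 3 at 40 °C 0H against 10.17 and 10.97 in the others. Among the 40 °C 0H arrays, the mean poly-A spike-in signal was 8.79 in replicate 1 and 8.81 in replicate 2, against 4.83 in replicate 3. Without both of these arrays, a setting added after the data were seen, the rise of NSHB1 and NSHB2 at 40 °C and their fall at 4H all passed the test. Median signals over all gene probe sets lay between 1.49 and 1.59 on the 12 arrays, whose number limits the precision.

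Markers of seed tissues were read to check the label, which gives seed as the tissue and embryonic axis in the protocol. Of 7 measured embryo markers, the dehydrin RAB21 had means from 12.47 to 13.10 and the late embryogenesis protein EMP1 from 12.16 to 12.46 over the 4 groups. The homeobox gene OSH1 had means of 6.37 and 6.47 at 0H, 5.79 at 25 °C 4H and 3.78 at 40 °C 4H, and was lower by at least 1.79 with temperature at 4H. The summed linear signal of the 7 ran from 19900 to 21700 at 25 °C 4H and from 16800 to 18500 at 40 °C 4H. With temperature at 4H 5 of the 7 fell, where 43.5% of all probe sets fell and 30.5% rose. From 0H to 4H at 40 °C all 7 fell, from a sum of 26300 to 27600, while the hemoglobins rose. Of all probe sets 46.3% fell and 41.0% rose in that comparison. Of 15 endosperm and aleurone markers 12 passed the filter, and GLUA3, GLUB4 and AMY1.5 stayed below log2 4 on every array. At 4H 6 of the 12 fell with temperature and 1 rose, where 43.5% of all probe sets fell and 30.5% rose. The summed signal of the 15 at 4H was 2630 to 3920 at 25 °C and 2400 to 2850 at 40 °C. At 0H 3 of the 12 were higher at 40 °C, GBSS1, a starch synthase, by 2.3, where 5.99% of all probe sets were higher and 11.7% lower. The sums at 0H were 1470 to 2750 at 25 °C and 3510 to 3980 at 40 °C. From 0H to 4H at 40 °C 6 of the 12 fell and 2 rose, where 46.3% of all probe sets fell and 41.0% rose. The 2 that rose were the alpha-amylases AMY1.1, by 4.33, and AMY3D, by 0.85, while the alpha-amylases AMY3E and AMY3A fell. AMY3A passed the filter only through its 0H arrays, so its fall is not independent of the filter. The mean of AMY1.1 also rose at 25 °C, from 4.08 to 9.91, so the sums at 4H include that rise. Transcript of listed endosperm and aleurone genes was thus measured in these axes, and the part of these marker shifts in the hemoglobin values was not tested. The sums do not separate storage genes from alpha-amylases. Of 4 leaf markers CAB2R, LHCP and RBCS1 stayed below log2 4 throughout. The fourth, RBCS, read 4.75 to 5.27 at 25 °C 0H and 5.37 to 5.68 at 40 °C 0H, higher at 40 °C by 0.53 (limma adjusted p = 0.04), and all its 4H arrays lay below log2 4.

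The 3 probe sets paired with NSHB1 gave the same directions from 0H to 4H and with temperature at 4H, at different signals. The _x_at set read 8.01, 7.93 and 8.17 at 25 °C 4H and 5.68, 5.75 and 5.59 at 40 °C 4H. The _at set, which has no mark for cross-matching, read 6.86, 6.95 and 6.66 and then 4.78, 4.76 and 4.64. In both, the 40 °C arrays lay below the 25 °C arrays, and all 0H arrays lay below log2 4. These sets too passed the filter only through their 4H arrays. The fall with temperature at 4H was 2.55 through the chosen set, 2.36 through the _x_at set (SE 0.20, limma adjusted p = 1.00e-07) and 2.1 through the _at set (SE 0.27, limma adjusted p = 5.91e-06). The rise at 40 °C was at least 1.67 and at least 0.72 through the _x_at and _at sets (limma adjusted p = 3.63e-10 and 4.89e-08). These bounds are smaller than the 3.54 of the chosen set because the 4H signals lie nearer to log2 4. At 0H the sets differed. The difference between 40 °C and 25 °C was −0.04 through the chosen set. It was 0.60 through the _at set (95% interval 0.02 to 1.17, limma adjusted p = 0.142). Through the _x_at set it was 0.45 (95% interval 0.02 to 0.88, limma adjusted p = 0.136). All these signals lay below log2 4, and the arrays overlapped. The sets come from the same transcript and are not replicates. NSHB2 had a single probe set.

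**Figure D2:**
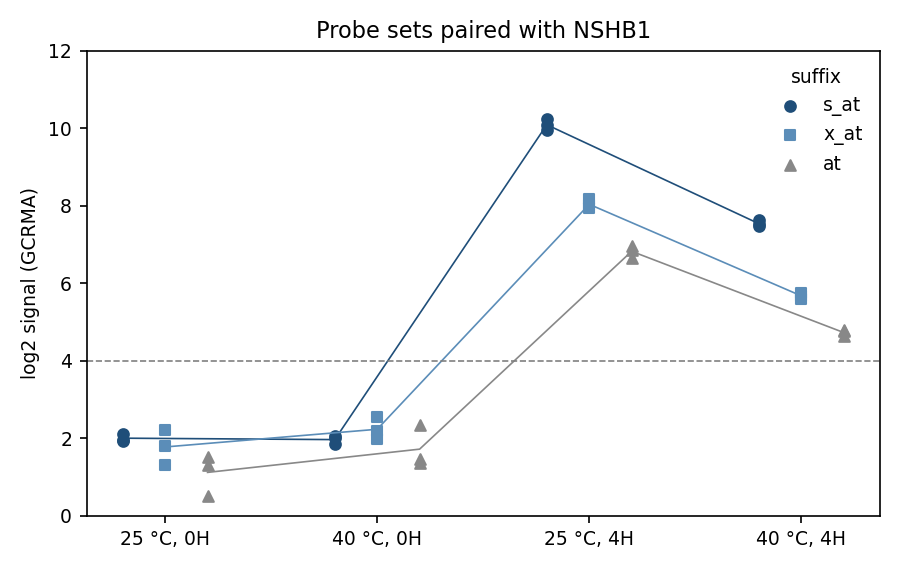
Log2 signals (vertical axis) of the 3 probe sets paired with NSHB1, named by their suffix, in the 4 groups (horizontal axis). Points are single arrays, lines join the group means and the dashed line is log2 4. Each set is highest at 25 °C 4H and lower at 40 °C 4H, with all 0H arrays under the line.

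Among strongly rising probe sets the hemoglobins can be placed as a description. At 25 °C 193 probe sets were at least 5 higher at 4H than at 0H, a limit chosen after the data were seen. Their median change was 5.65 at 25 °C and 5.23 at 40 °C, and their median temperature difference at 4H was −0.64, within a range from −5.12 to 2.23. Of the 193, 120 read lower at 40 °C than at 25 °C at 4H, 35 had a difference at or below that of NSHB1 and 42 one at or below that of NSHB2, the genes themselves included.

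**Figure D3:**
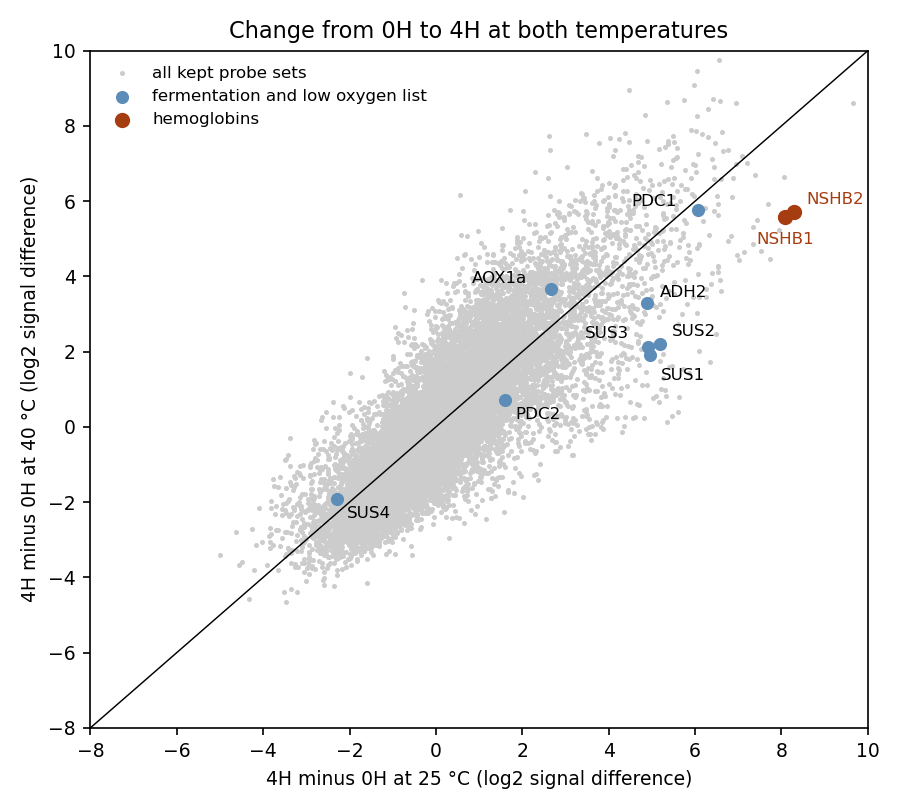
Difference between 4H and 0H (log2 signal) at 25 °C (horizontal axis) and at 40 °C (vertical axis) for the 17650 probe sets that passed the filter, in grey. The line marks equal changes. NSHB1 and NSHB2 lie below it at 8.09 and 8.30 on the horizontal axis, PDC1 lies close to it, and the sucrose synthases SUS1, SUS2 and SUS3 lie below it.

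Enzymes of ethanol fermentation and other low-oxygen responses, a list of 13 genes of which 11 were measured and 8 passed the filter, mostly rose with the hemoglobins. At 40 °C 7 of the 8 rose from 0H to 4H and 1 fell, with a median difference of 2.17, and at 25 °C 7 rose and 1 fell, with a median of 4.89. Of all probe sets, 41.0% rose and 46.3% fell at 40 °C, and 39.9% rose and 42.0% fell at 25 °C, with medians of −0.13 and −0.04. PDC1, a pyruvate decarboxylase that starts ethanol fermentation, read 5.28, 5.84 and 5.63 at 40 °C 0H and 11.36, 11.36 and 11.31 at 40 °C 4H. All its 4H arrays lay above its 0H arrays, and it rose by 5.76 (SE 0.25, limma adjusted p = 1.71e-11). ADH2, an alcohol dehydrogenase that makes the ethanol, rose by 3.30 at 40 °C (SE 0.20, limma adjusted p = 4.89e-10). PDC2, another pyruvate decarboxylase, rose by 0.72 (SE 0.06). AOX1a, the alternative oxidase of mitochondria, rose by at least 1.83. The sucrose synthases SUS3 and SUS2, which cleave sucrose, rose by 2.13 and by at least 1.88, while SUS4 fell by 1.91. AOX1a and SUS2 needed their 4H arrays to pass the filter. Their rises in these counts are thus not independent of the filter.

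The temperature difference at 4H was uneven within this list: 5 of 8 genes fell, 1 rose and 2 did not pass the test, with a median of −1.13. Over all probe sets the median was −0.16, and 43.5% fell and 30.5% rose. PDC1 read 11.72, 11.55 and 11.32 at 25 °C 4H, so its arrays overlapped with those at 40 °C, and its difference was −0.18 (SE 0.25, limma adjusted p = 0.526). PDC2 fell by 0.75 (SE 0.06) and ADH2 by 1.51 (SE 0.20). ADH2 read 8.76, 9.01 and 8.89 at 25 °C and 7.66, 7.18 and 7.29 at 40 °C, with no overlap. SUS3 fell by 2.54 (SE 0.12), from 10.76, 10.67 and 10.26 to 8.05, 8.08 and 7.95. SUS1 fell by 3.27 (SE 0.24), SUS2 fell by 3.41 (SE 0.24), and AOX1a rose by 0.85 (SE 0.18). The differences of the hemoglobins, −2.55 and −2.33, lay between those of ADH2 and SUS1. Whether they differ from those of the list was not tested. At 0H, where 17.7% of all probe sets passed the test, only SUS4 of the 8 did, and it fell by 0.31 (SE 0.08, limma adjusted p = 0.0182). That call was lost, leaving 0 lower genes, without replicate 1 or 2 at 25 °C 0H, without replicate 3 at 40 °C 0H, and without replicates 1 and 2 at 40 °C 0H together. Without replicate 2 at 25 °C 0H 1 gene was higher.

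**Figure D4:**
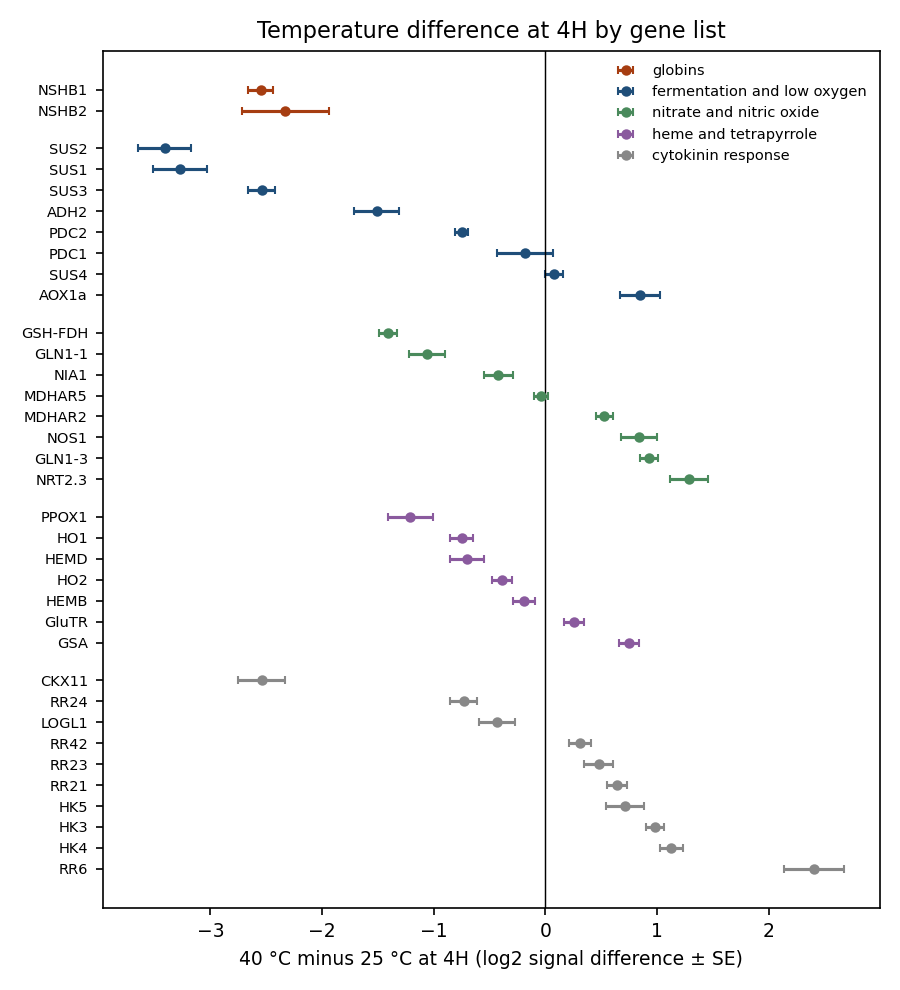
Difference between 40 °C and 25 °C at 4H (log2 signal ± SE, horizontal axis) for each gene of the 5 lists that passed the filter (vertical axis), coloured by list. NSHB1 and NSHB2 lie at −2.55 and −2.33, SUS2 lies lowest at −3.41 and RR6 highest at 2.41.

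Genes listed for nitrate and nitric oxide metabolism moved in both directions, as all probe sets did. The list also holds nitrate transporters, glutamine synthetases and monodehydroascorbate reductases, so its counts do not measure nitric oxide supply or removal. Of 15 listed genes 12 were measured and 8 passed the filter. From 0H to 4H at 40 °C 5 rose and 2 fell, with a median of 0.43, where 41.0% of all probe sets rose and 46.3% fell. GSH-FDH, the enzyme that breaks down S-nitrosoglutathione, read 8.80, 8.77 and 8.90 at 0H and 5.98, 6.08 and 6.24 at 4H. It fell by 2.72 (SE 0.08, limma adjusted p = 3.96e-13), with no overlap between the groups. The monodehydroascorbate reductases MDHAR2 and MDHAR5, of a family known to reduce oxidised hemoglobin in other plants, rose by 1.03 (SE 0.08) and 0.48 (SE 0.06). The nitrate transporter NRT2.3 rose by 0.68 and the glutamine synthetase GLN1-3 by 0.46. NIA1, a nitrate reductase and so a source of nitrite, fell by 0.35 (SE 0.13, limma adjusted p = 0.0203). Without replicate 2 at 40 °C 0H, or replicate 1 or 2 at 40 °C 4H, 1 gene of this list fell in place of 2.

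At 4H 4 of these 8 genes were higher and 3 lower at 40 °C than at 25 °C, with a median of 0.25, where 30.5% of all probe sets were higher and 43.5% lower. GSH-FDH fell by 1.41 (SE 0.08, limma adjusted p = 2.93e-09), GLN1-3 rose by 0.93 (SE 0.08) and NRT2.3 rose by at least 1.12. At 0H 3 were higher and 1 was lower at 40 °C, where 5.99% of all probe sets were higher and 11.7% lower. Among the called genes were GLN1-3 at 0.39 (SE 0.08) and MDHAR2 at −0.36 (SE 0.08). At 0H 2 genes fell without replicate 2 at 40 °C 0H or replicate 3 at 25 °C 4H, and without both 40 °C 0H arrays with high spike-ins no gene (0) was higher. At 25 °C 3 rose and 2 fell from 0H to 4H, where 39.9% of all probe sets rose and 42.0% fell. Only 1 of the list fell without replicate 2 at 25 °C 0H or replicate 1 at 25 °C 4H.

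Heme, the cofactor that hemoglobin needs, is made by the tetrapyrrole pathway, of which 7 of 8 listed genes were measured and all 7 passed the filter. The early enzymes rose from 0H to 4H at 40 °C: GluTR, the glutamyl-tRNA reductase at the start, by 1.96 (SE 0.09), GSA, the next aminotransferase, by 1.63 (SE 0.09), and HEMB, which forms porphobilinogen, by 0.71 (SE 0.10). GluTR passed at a limma adjusted p of 3.17e-11. The other 4 genes fell, among them the uroporphyrinogen synthase HEMD, by at least 1.29. The genes named as heme oxygenases, HO2 and HO1, fell by 1.67 (SE 0.09) and 0.40 (SE 0.10), and whether both products break heme down was not tested. The median of the list was −0.40, against −0.13 over all probe sets, of which 41.0% rose and 46.3% fell. At 25 °C 5 rose and 2 fell, with a median of 0.53, where 39.9% of all probe sets rose and 42.0% fell.

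At 4H 2 of the heme genes were higher and 4 lower at 40 °C than at 25 °C, with a median of −0.39, where 30.5% of all probe sets were higher and 43.5% lower. GSA rose by 0.75 (SE 0.09), HO1 fell by 0.75 (SE 0.10) and the signal of PPOX1, the protoporphyrinogen oxidase, was lower by at least 0.53. Only 1 gene was higher in place of 2 when replicate 3 at 25 °C 4H, or replicate 1 or 3 at 40 °C 4H, was left out. At 0H, where 17.7% of all probe sets passed limma's adjusted test, none of the 7 did (0 higher and 0 lower). For 1 of them, HEMD, the unadjusted p was under 0.05.

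Named genes of like pattern were ranked over the 12 arrays among 1701 others with a short name, as a description. The arrays share 4 groups, so a high correlation mostly reflects the group means. By the root mean square difference of mean-centred signals, each hemoglobin was nearest to the other (0.524), and their correlation was r = 0.990. GH3.2, of a family that joins auxin to amino acids, came next to NSHB1 (0.781, r = 0.996). It had means of 1.52 and 8.05 at 25 °C and of 1.71 and 5.99 at 40 °C, for 0H and 4H. The gene named cap2 (0.843), FBA1, an aldolase of glycolysis (0.996), PDC1 (1.002) and the expansin EXPB4 (1.060) followed for NSHB1. The nearest to NSHB2 were cap2 (0.958), GH3.2 (1.026), PDC1 (1.078), FBA1 (1.101) and EXPB4 (1.120).

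By correlation alone, which leaves the size of a change aside, GH3.2, WOX6, UGD4, GF14C and CBP1 were closest to NSHB1, with r from 0.994 to 0.996. ADH2 and CSLC1 (both r = 0.994), cap2 and OsC3H53 (both 0.990) and FBA1 (0.989) were closest to NSHB2. WOX6, a homeobox gene, had a temperature difference at 4H of −0.95 and GF14C, a 14-3-3 protein, one of −0.58, both smaller than that of NSHB1. NSHB2 ranked 18 by correlation with NSHB1, and NSHB1 ranked 5 with NSHB2, where the 0H arrays of NSHB2 were more scattered.

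**Figure D5:**
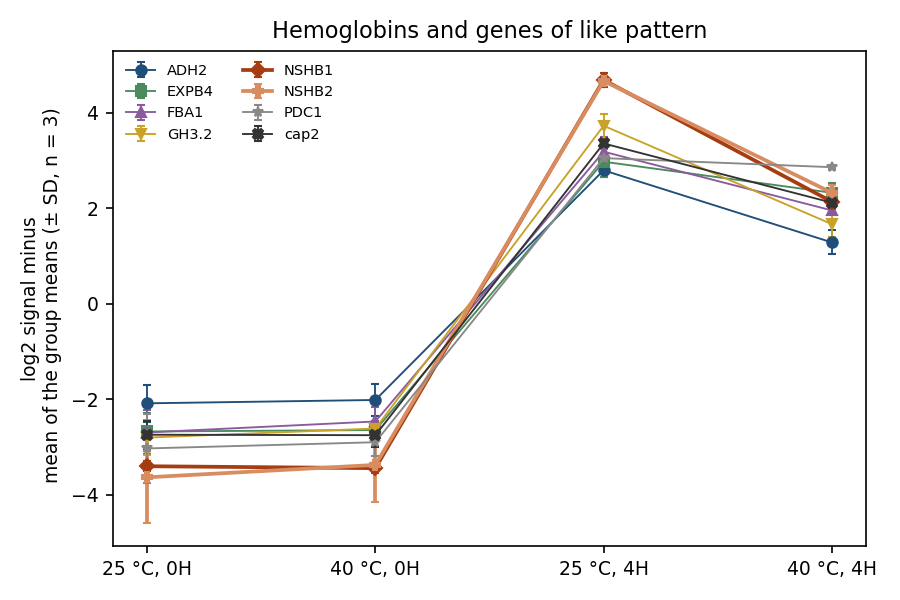
Group means of log2 signal, centred on the mean of the 4 groups (vertical axis, ± SD, n = 3), for NSHB1, NSHB2 and the named genes nearest to them, by group (horizontal axis). Both hemoglobins have the widest span from 0H to 25 °C 4H of the genes shown, and PDC1 has the smallest drop at 40 °C 4H, with a difference of −0.18.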

How the data were processed

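The authors deposited 1 table of log2 signals, made with GCRMA per the submitters' processing notes (no version given; the size of the values shows the log base), with 57381 probe sets on 12 arrays. GCRMA corrects the background from probe sequence, normalizes across arrays and summarises probes. Low signals could scatter widely, as those of NSHB2 at 0H did (SD 0.96 at 25 °C). No genome build is given in the sources used here, so no coordinates are printed; names come from GEO's platform annotation (22436 probe sets with 1 gene, 95 with several) and the RefSeq table of assembly ASM3414082v1. That table holds no sequences.

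The 123 control probe sets were left out, and 17650 of 57258 passed a filter (above log2 4 in at least 3 arrays). Over all of them, limma 3.58.1 (R 4.3.3) gave the tests: group means of all 12 arrays, contrasts, eBayes with a variance trend, two-sided, 8 residual degrees of freedom, Benjamini-Hochberg adjusted p under 0.05. The fit was tested on simulated data. A gene whose lower group had no array above log2 4 gets a bound, the distance of the higher group from 4. Tables and plots used Python 3.11.15 and matplotlib 3.10.9.

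The members and lists were chosen with earlier results of these data known. The design asked for lists by gene description; the table has none, so symbols and synonyms were used. Named were both members, for each list up to 6 genes with the lowest p in 4H against 0H at 40 °C and up to 3 in other comparisons, and 5 genes of like pattern by each measure. For the fermentation and cytokinin lists more genes were named than this rule gives. Markers and genes flagged for opposite directions were named apart from it. The pairing of replicate numbers was checked from the data: for 4H against 0H at 25 °C the same-numbered deviations correlated at 0.229, 0.126 and 0.423, all above the limit of 0.1, and in the other comparisons at least 1 pair did not. Different numbers also correlated at up to 0.205 at 25 °C, above the 0.126 of replicate 2, so the check does not settle a pairing. Several endosperm markers rose with the replicate number in both 25 °C groups. GLUA1 read 5.16, 5.82 and 6.51 at 0H and 5.26, 6.08 and 6.82 at 4H. RA14 read 8.65, 8.99 and 9.87 at 0H and 9.13, 9.72 and 10.52 at 4H. GLUB4 and the alpha-amylases did not, and at 40 °C neither GLUA1 nor RA14 did so in both groups. The source of this order was not tested. A replicate block, other filters, normalizations, weights, probe sets and leaving out arrays were tried as alternatives.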

Additional observations from a re-analysis of the deposited data

Results flagged for a closer look

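In some list genes all 3 arrays of each group moved one way at one temperature and the opposite way at the other, between 0H and 4H. The differences of these differences were not tested, and neither hemoglobin showed this pattern. As deposited, the change from 0H to 4H at 25 °C and at 40 °C was 0.48 and −0.35 for the nitrate reductase NIA1, −0.44 and 0.40 for NOS1, 0.52 and −0.60 for PPOX1, 0.53 and −0.40 for the heme oxygenase HO1, 1.08 and −1.95 for the cytokinin dehydrogenase CKX11, and −0.82 and 0.23 for the cytokinin receptor kinase HK3. Some of these signals lay below log2 4, where a size is only a bound or is not given: NOS1 was lower by at least 0.19 at 25 °C, CKX11 was lower by at least 0.58 at 40 °C, and both means of PPOX1 at 40 °C (3.93 and 3.32) lay below it.

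In the same way, the difference between 40 °C and 25 °C ran opposite ways at 0H and at 4H. The values at 0H and 4H were 0.41 and −0.42 for NIA1, −0.36 and 0.53 for MDHAR2, −0.17 and 0.26 for GluTR, 0.19 and −0.75 for HO1, 0.15 and −0.39 for HO2, 0.13 and −0.75 for PDC2, and −0.10 and 0.64 for RR21. Of these 0H values, those of NIA1 and MDHAR2 passed limma's test.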

How the results depend on the processing

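The rise of both hemoglobins at 40 °C and their fall with temperature at 4H kept direction and call under all 22 alternatives. With values below log2 4 set to 4 the rise was 3.54 and 4.33. Without each array in turn, the rise was 5.51 to 5.62 for NSHB1 and 5.39 to 6.14 for NSHB2, and the fall −2.62 to −2.48 and −2.41 to −2.25. Adjusted p ranged from 1.46e-17 to 2.02e-10 (NSHB1) and 1.17e-13 to 1.32e-07 (NSHB2) for the rise, and from 6.92e-12 to 1.14e-07 and 1.97e-10 to 0.000601 for the fall. With the replicate block the fall was −2.55 and −2.33, and the block changed no call of either gene. All same-numbered deviations passed the correlation limit of 0.1 only for 4H against 0H at 25 °C, where different numbers also reached 0.205. At 0H the NSHB1 temperature difference turned from −0.04 to 0.0 with values set to 4, 0.60 (_at set) and 0.45 (_x_at set), and ran from −0.08 to 0.02 without single arrays. That of NSHB2 ran from −0.18 to 0.78, and was −0.35 without replicates 1 and 2 at 40 °C 0H together, an alternative chosen after seeing the data. None of these passed, and the cause was not tested. The NSHB1 difference at 25 °C was 6.09 (set to 4), 5.70 (_at) and 6.26 (_x_at), and that of NSHB2 6.67 (set to 4). The NSHB1 difference of changes was −2.39 with array weights, −2.69 (_at) and −2.82 (_x_at). Fits on the groups of a single comparison gave no value for it.

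List counts moved as follows, where fewer or more genes tested account for those of the filters. With the filter at log2 6, nitrate genes numbered 3 higher (4H against 0H at 40 °C), 2 higher (temperature at 4H) and 1 lower (4H against 0H at 25 °C), heme genes 2, 2 and 1 lower in these comparisons, fermentation genes 0 higher and cytokinin genes 1 lower with temperature at 4H. With no filter, nitrate genes numbered 5 lower with temperature at 4H and 5 higher (4H against 0H at 25 °C), and cytokinin genes 7 lower and 10 higher in the same comparisons. Values set to 4 gave 1 lower nitrate gene at 25 °C and 1 lower heme gene at 0H. Array weights gave 2 lower nitrate, 1 lower heme and 2 lower fermentation genes at 0H, and 1 higher heme gene at 4H. Quantile normalization gave 0 lower fermentation genes at 0H. Without both 40 °C 0H arrays, nitrate genes numbered 1 lower at 40 °C and 0 higher at 0H, and fermentation genes 0 lower at 0H. Without single arrays, lower nitrate genes ranged from 1 to 2 in 3 comparisons, higher heme genes at 4H from 1 to 2, and higher and lower fermentation and higher cytokinin genes at 0H from 0 to 1. Probe sets called numbered 10045 (40 °C) and 9525 (25 °C) with the filter at 6, and at 0H 5558 with array weights, 888 without both arrays, 2079 to 3847 without single arrays (2079 without replicate 2 at 40 °C 0H and 2080 without replicate 2 at 25 °C 0H), against 15396, 14457 and 3129. Low signal at 0H limits every size measured from it.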

Other observations

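Cytokinin response genes were read because rice Hb2 is known to respond to this hormone. Of 38 listed genes 28 were measured and 10 passed the filter. From 0H to 4H at 40 °C 6 rose and 3 fell, and at 4H 7 were higher and 3 lower at 40 °C than at 25 °C (medians 0.72 and 0.56). Of all probe sets, 41.0% rose and 46.3% fell from 0H to 4H at 40 °C, and 30.5% were higher and 43.5% lower with temperature at 4H (medians −0.13 and −0.16). RR6, a response regulator, read 7.98, 8.15 and 8.45 at 25 °C 4H and 10.77, 10.57 and 10.48 at 40 °C 4H. It rose by 5.89 from 0H to 4H at 40 °C (SE 0.27) and was higher by 2.41 at 40 °C at 4H (SE 0.27, limma adjusted p = 1.52e-06), where the hemoglobins were lower. The response regulators RR21 and RR42 rose by 2.02 and 1.21 from 0H to 4H at 40 °C, and the receptor kinases HK5 and HK4 by 2.23 and 1.32. The 3 that fell were RR24, by 1.40, RR23, by 0.98, and CKX11, by at least 0.58. CKX11, which degrades cytokinin, was lower at 40 °C by at least 1.17 at 4H. At 25 °C 6 rose and 3 fell from 0H to 4H, where 39.9% of all probe sets rose and 42.0% fell. At 0H, where 17.7% of all probe sets passed limma's adjusted test, none of the 10 did (0 higher, 0 lower). For 1 of them, CKX11, the unadjusted p was under 0.05. Leaving out replicate 1 at 25 °C 0H or replicate 3 at 40 °C 0H made 1 gene higher at 0H.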
